A study of Mus musculus with 12 samples.

Results

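The matrix metalloproteinases (MMPs) and their tissue inhibitors (TIMPs) were followed at the RNA level in tumors grown from CT-26 cells, a cell line of colon carcinoma that comes from a BALB/c mouse. The 10 genes are Mmp2, Mmp3, Mmp9, Mmp10, Mmp11, Mmp13, Mmp14, Timp1, Timp2 and Timp3. They were chosen by symbol and make up 10 of the 30630 genes for which a value was given in every tumor. RNA-Seq had been done on 12 tumors of 12 mice, of which 6 belonged to the control group and 6 to the swimming group. All mice were male BALB/c mice bought at 4 to 6 weeks of age, and all carried CT-26 cells injected under the skin of the right flank together with Matrigel, a basement membrane extract. The mice were divided at random into groups of 10, according to tumor volume 3 days after the injection. The sequenced tumors of each group were picked at random. In the swimming group, training lasted 3 weeks, with 2 swims of at most 30 min per day on 6 days of the week. The control group carried the same tumors and had no swimming training. The tumors are therefore subcutaneous grafts of 1 cell line, and their RNA also holds that of the host cells within them.

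MMPs are zinc-dependent proteases that cut collagens, laminins, fibronectin and many proteins on the cell surface. They are made as inactive precursors and are activated by plasmin, by other MMPs or by furin-like proteases inside the cell. TIMPs bind the active site of MMPs and block it, and TIMP2 also helps the membrane-bound MMP14 to activate MMP2. In tumors, MMPs are made both by cancer cells and by fibroblasts, macrophages and neutrophils around them. The level of their RNA does not show how much active enzyme a tumor holds.

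Expression is given in FPKM, a read number divided by the length of the gene and by the depth of the library, so levels of different genes can be set side by side. Group differences are log2 fold changes, swimming group minus control group, of log2(FPKM + 1). This scale understates the change of weakly expressed genes such as Mmp10. Between 22293 and 23974 genes were above 0 in a tumor, and the depth relative to the deepest library was 0.694 in control 2 and at least 0.871 in every other tumor. Of the 19018 genes tested, 1058 had an unadjusted p below 0.05 (5.56%) and 0 had an adjusted p below 0.05 in limma. Markers of T cells and NK cells were higher in the swimming group, with 4 of 10 genes at an unadjusted p below 0.05 and a mean score difference of 0.36 on the log2 scale (two-sided exact permutation test, p = 0.0281, and 0.253 after adjustment over 9 marker lists). The score differences of the other 8 lists had adjusted p values of at least 0.808. Several markers that define colon epithelium were at or near 0 in these tumors, among them Epcam, which was at 0 in 5 of 12 tumors and reached 0.177 FPKM. Another of them, Krt20, ranged from 99.8 to 194 FPKM.

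Mmp13, Mmp3 and Mmp10 lie on the same strand within a cluster of MMP genes on mouse chromosome 9. Their exon models span positions 7272514 to 7283331, 7445822 to 7455975 and 7502352 to 7510240 on GRCm38. Mmp13 encodes a collagenase, and Mmp3 and Mmp10 encode stromelysins, which cut a wide range of matrix proteins and activate other MMPs. Their promoters are printed because they share a short motif that was not found in the other promoters of the family looked at here. Each run holds 250 bases before and 50 bases after the start of the RefSeq gene on the plus strand of GRCm38.p6. Capitals mark TGAGTCA or its reverse complement TGACTCA, the sequence bound by AP-1, a dimer of Jun and Fos proteins. The regions are chr9:7272264-7272563, chr9:7445572-7445871 and chr9:7502092-7502391.
Mmp13: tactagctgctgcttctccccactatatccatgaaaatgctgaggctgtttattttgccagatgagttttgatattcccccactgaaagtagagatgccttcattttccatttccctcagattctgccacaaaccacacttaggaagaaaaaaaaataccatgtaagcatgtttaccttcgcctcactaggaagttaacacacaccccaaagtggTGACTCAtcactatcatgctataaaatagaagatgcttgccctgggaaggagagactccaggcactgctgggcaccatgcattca
Mmp3: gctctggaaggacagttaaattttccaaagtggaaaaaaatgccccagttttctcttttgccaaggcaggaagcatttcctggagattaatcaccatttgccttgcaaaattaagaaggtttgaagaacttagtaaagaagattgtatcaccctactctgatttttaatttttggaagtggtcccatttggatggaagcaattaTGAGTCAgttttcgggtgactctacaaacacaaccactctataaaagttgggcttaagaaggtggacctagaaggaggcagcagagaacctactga
Mmp10: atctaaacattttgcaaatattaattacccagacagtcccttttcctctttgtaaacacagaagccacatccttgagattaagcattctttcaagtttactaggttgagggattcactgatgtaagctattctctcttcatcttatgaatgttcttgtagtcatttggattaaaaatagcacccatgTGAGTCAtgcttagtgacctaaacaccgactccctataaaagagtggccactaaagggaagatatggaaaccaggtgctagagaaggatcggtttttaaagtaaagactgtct
The motif began 35 bases before the start of Mmp13, 46 bases before that of Mmp3 and 63 bases before that of Mmp10. It was not found in the same window of Mmp11, Mmp14, Timp1, Timp2 or Timp3. Promoters of Mmp2 and Mmp9 were not analysed here. On either strand, 1709 of 32851 RefSeq promoters of this length held the motif (5.20%). A match describes the letters in the window and not a bound site. Across the tumors, Pearson's r was 0.64 between Mmp10 and Mmp13 (permutation p = 0.0226, adjusted over 45 pairs 0.140, Spearman's rho 0.71 with adjusted p = 0.0784). Between Mmp3 and Mmp10 it was -0.22 (permutation p = 0.494), and 0.33 without control 4 and swimming 1, so their relation had no stable sign.

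Of the inhibitors, Timp1 and Timp2 were far more abundant than every protease. Timp1 had a mean of 518 FPKM over the 12 tumors and made up 73.9 to 84.4% of the summed level of the 3 Timp genes. Timp2 followed with 132 FPKM, while Timp3 was low at 4.04 FPKM. Among the proteases, Mmp14 led with 24.9 FPKM, ahead of Mmp3 with 20.9, Mmp2 with 11.5, Mmp13 with 10.1, Mmp9 with 9.94 and Mmp11 with 6.48 FPKM. Mmp10 was the weakest with 0.446 FPKM. Only 3 pairs of neighbours in this order had ranges that did not overlap, namely Timp1 and Timp2, Timp2 and Mmp14, and Timp3 and Mmp10. Mmp14 exceeded Mmp3 in 8 of 12 tumors, whereas Mmp2 exceeded Mmp13, and Mmp13 exceeded Mmp9, in only 6 of 12. The order of these middle genes therefore differed from tumor to tumor. Mmp3 and Mmp10 share 140 stretches of 50 bases in their transcripts, of 1752 in Mmp3 and 1673 in Mmp10. Reads from these stretches could be divided between them. Since Mmp3 was far more abundant, such reads could weigh more in the level of Mmp10 than in that of Mmp3, and their part was not tested. The other members shared 0 such stretches with genes of the family.

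**Figure D1:**
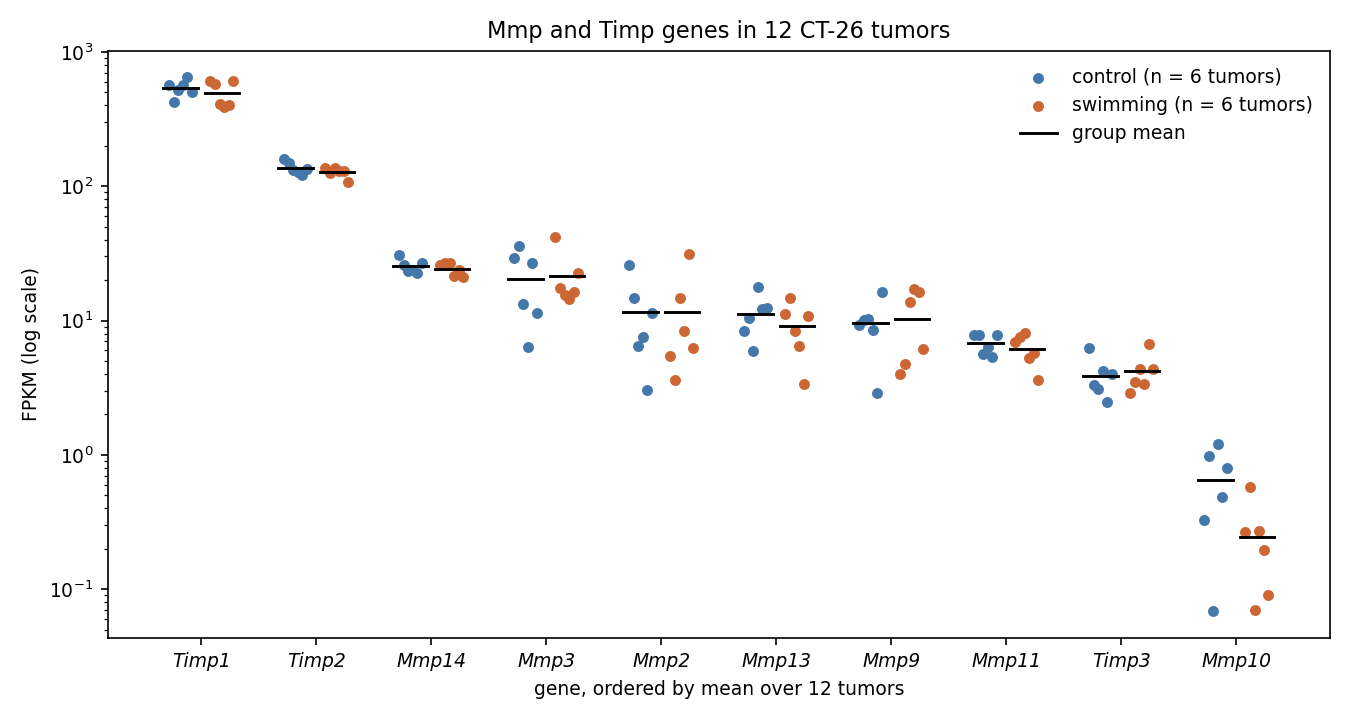
Level of each gene in FPKM (log axis) in the 12 tumors, ordered by mean, with 1 point per tumor, 6 control and 6 swimming tumors, and a line at each group mean. Timp1 and Timp2 stand above every protease, Mmp10 lies lowest, and the points of both groups overlap for all 10 genes.

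The genes also differed in how much they varied between tumors. Mmp14, Timp2 and Timp1 were the most even, with a highest-to-lowest ratio of 1.46, 1.49 and 1.67. The ratio was 2.24 for Mmp11, 2.72 for Timp3, 5.29 for Mmp13, 5.98 for Mmp9 and 6.61 for Mmp3. It reached 10.3 for Mmp2 and 17.6 for Mmp10. The coefficient of variation over all tumors ran from 9.87% for Timp2 to 84.7% for Mmp10. On the log2(FPKM + 1) scale of the group comparison, the standard error of the difference was widest for Mmp2 (0.50), Mmp9 (0.40) and Mmp3 (0.38) and narrowest for Timp2 (0.077) and Mmp14 (0.085).

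To see whether RNA of these genes differed with swimming, the groups were compared gene by gene. Of the 10 members, 3 had a higher and 7 a lower mean log2 level in the swimming group, against 51.7% and 48.3% of all genes tested. The median log2 fold change of the members was -0.085, against 0.0039 over all genes. Mmp10, with lower values, was the only member at an unadjusted p below 0.05, where 2.46% of all genes tested lay in this direction. At an unadjusted p below 0.05, 0 members were higher in the swimming group, against 3.11% of all genes. In limma, 0 members had an adjusted p below 0.05, and the smallest adjusted p of a member was 0.889. For 0 of the 10 did the groups separate without overlap, against 0.147% of all genes (0.0789% higher and 0.0684% lower in the swimming group). The smallest two-sided p that the exact permutation test can give here, over 924 divisions of the tumors, is 0.00216.

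Mmp10 ranged from 0.0686 to 1.21 FPKM in the control group, with a median of 0.645, and from 0.0698 to 0.573 FPKM in the swimming group, with a median of 0.232. The mean was 0.647 ± 0.429 FPKM (SD, n = 6) in control and 0.245 ± 0.182 FPKM (SD, n = 6) in swimming tumors. All 6 swimming tumors lay below the control median, but control 3 was the lowest tumor of all, so the groups overlapped. This gave a log2 fold change of -0.37 (SE 0.16, 95% interval -0.72 to -0.023), with p = 0.0387 in limma, 0.889 after Benjamini-Hochberg adjustment and 0.0736 in the exact permutation test. The unadjusted p rose above 0.05 in 8 of the 12 fits that left out 1 tumor, namely without control 2, 4 or 6 or without swimming 1, 3, 4, 5 or 6, and was 0.0919 without control 4. With a pseudocount of 0.1 in place of 1, the log2 fold change was -0.99, and its unadjusted p in limma was no longer below 0.05. The same held without the 3 tumors highest in skeletal muscle markers, where the log2 fold change was -0.28. How far reads from stretches shared with the more abundant Mmp3 entered the Mmp10 values was not tested. The T and NK cell score, higher in the swimming group, had r of -0.54 with Mmp10 (permutation p = 0.06945, adjusted over 90 relations 0.260). Within the control tumors it was -0.50 and within the swimming tumors -0.093. The score of the colon epithelium markers differed by -0.24 between the groups (exact permutation p = 0.180). It rests on the 6 of 12 listed genes that were among the genes tested. Of these, 4 were lower and 2 higher in the swimming group, with the lowest log2 fold change for Krt8 (-1.09, SE 0.75). The r of this score with Mmp10 was 0.60 (permutation p = 0.0294, adjusted 0.162), and 0.17 without control 4 and swimming 5. The part of either score in the result was not tested.

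The other stromelysin of the cluster, Mmp3, ranged from 6.36 to 35.9 FPKM in control tumors, with a median of 20.1, and from 14.5 to 42.0 FPKM in swimming tumors, with a median of 16.9. Swimming 1 was the highest tumor and control 4 the lowest, and the other 5 swimming tumors lay within the control range. The log2 fold change of Mmp3 was 0.17 (SE 0.38, 95% interval -0.65 to 1.00, limma adjusted p = 0.978). It turned to -0.095 when control 4 was left out and to -0.038 without swimming 1.

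Mmp13, the collagenase, had a median of 11.3 FPKM in the control group, between 5.89 and 17.7, and of 9.59 FPKM in the swimming group, between 3.34 and 14.7. Only 1 swimming tumor exceeded the control median, and swimming 5 lay below every control tumor. Its log2 fold change was -0.30 (SE 0.30, 95% interval -0.94 to 0.34, limma adjusted p = 0.934). Without the 3 tumors highest in skeletal muscle markers (control 6, swimming 3 and swimming 5) it was 0.024.

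The gelatinases Mmp2 and Mmp9 cut denatured collagen and type IV collagen of basement membranes. Mmp2 ranged from 3.04 to 25.7 FPKM in control tumors (median 9.49) and from 3.61 to 31.3 FPKM in swimming tumors (median 7.29). In each group 1 tumor stood high, control 1 and swimming 5, so the means were nearly the same at 11.5 ± 8.07 and 11.6 ± 10.4 FPKM (SD, n = 6 each). The log2 fold change was -0.067, with a wide 95% interval from -1.14 to 1.01 (SE 0.50, limma adjusted p = 0.991). Its sign turned with single tumors, from -0.40 without swimming 5 to 0.20 without control 1, and it was also above 0 without control 2 or without swimming 1, 2 or 6.

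Mmp9 ranged from 2.88 to 16.3 FPKM in control tumors (median 9.63) and from 3.98 to 17.2 FPKM in swimming tumors (median 9.90). The swimming tumors fell into 3 lower ones, numbers 1, 2 and 6 at 3.98 to 6.14 FPKM, and 3 higher ones, numbers 3, 4 and 5 at 13.7 to 17.2 FPKM. Of the control tumors, 4 lay between them, and control 5 was the lowest tumor of all. For Mmp9 the log2 fold change was 0.039 (SE 0.40, 95% interval -0.82 to 0.90, limma adjusted p = 0.992), and it turned to -0.22 without control 5 and to between -0.14 and -0.074 without swimming 3, 4 or 5.

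Mmp11, known as stromelysin 3, and Mmp14, which sits in the cell membrane, are both activated by furin-like proteases. Mmp11 ranged from 5.34 to 7.77 FPKM in control tumors (median 7.03) and from 3.62 to 8.12 FPKM in swimming tumors (median 6.31). Swimming 6 was the lowest and swimming 3 the highest tumor. The log2 fold change of Mmp11 was -0.13 (SE 0.16, 95% interval -0.47 to 0.20, limma adjusted p = 0.943), and -0.013 without swimming 6. Exons of Mmp11 overlap those of Chchd10 on the opposite strand, which stood at 1.05 to 6.59 FPKM, and whether reads were counted by strand is not given in the sources used here.

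Mmp14 had almost the same median in both groups, 24.9 FPKM in control (22.5 to 30.8) and 24.8 FPKM in swimming tumors (21.1 to 26.9). Swimming 4 and swimming 6 lay below every control tumor, and control 1 was the highest. Its log2 fold change was -0.069 (SE 0.085, 95% interval -0.25 to 0.11, limma adjusted p = 0.944). With so even a gene the interval was narrow, and a change by a factor of 2 in either direction lay outside it.

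Among the inhibitors, Timp1 ranged from 427 to 646 FPKM in control tumors (median 543) and from 386 to 603 FPKM in swimming tumors (median 496). The swimming tumors were split again, with numbers 3, 4 and 5 below every control tumor and numbers 1, 2 and 6 at 581 to 603 FPKM. For Timp1 the log2 fold change was -0.13 (SE 0.14, 95% interval -0.43 to 0.17, limma adjusted p = 0.938).

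Timp2 ranged from 121 to 159 FPKM in control tumors (median 133) and from 107 to 138 FPKM in swimming tumors (median 130). Swimming 6 lay below every control tumor, and the other 5 fell within the control range. Its log2 fold change was -0.10 (SE 0.077, 95% interval -0.27 to 0.065, limma adjusted p = 0.917).

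Timp3 binds to the matrix and also inhibits ADAM proteases. It ranged from 2.46 to 6.23 FPKM in control tumors (median 3.67) and from 2.88 to 6.72 FPKM in swimming tumors (median 3.91), highest in swimming 5 and control 1. Its log2 fold change was 0.090 (SE 0.19, 95% interval -0.31 to 0.49, limma adjusted p = 0.975), and it turned to -0.032 without swimming 5 and to -0.0017 without control 5. Exons of Timp3 overlap those of Syn3 on the opposite strand, which stayed at or below 0.147 FPKM.

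The summed level of the 7 Mmp genes was 85.6 ± 19.3 FPKM in control tumors and 83.2 ± 11.7 FPKM in swimming tumors (SD, n = 6 each). For the 3 Timp genes it was 679 ± 68.2 and 629 ± 102 FPKM. The ratio of Timp to Mmp levels was 8.31 ± 2.13 in control tumors, between 5.48 and 10.5, and 7.71 ± 1.77 in swimming tumors, between 5.56 and 10.1. For this ratio, the ranges of both groups covered each other almost entirely. The Timp sum ran from 579 to 769 FPKM in control and from 519 to 741 FPKM in swimming tumors. In this sum, swimming 3, 4 and 5 lay below every control tumor.

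**Figure D2:**
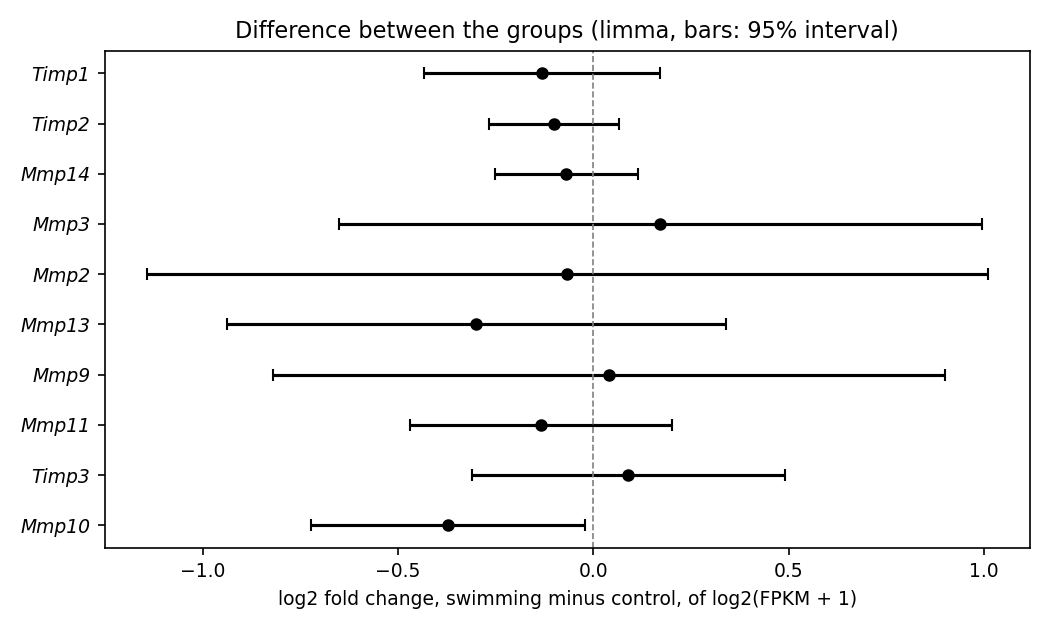
Log2 fold change (swimming minus control, of log2(FPKM + 1)) of each gene in limma as a point, with bars for the 95% interval, from 6 control and 6 swimming tumors. The interval of Mmp10 (-0.72 to -0.023) is the only one that leaves out 0, and the intervals of Mmp2, Mmp3 and Mmp9 are the widest.

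The members were then set against each other across the 12 tumors. Of 45 pairs, 5 passed Benjamini-Hochberg adjustment by Pearson's r, and 2 of them also by Spearman's rho. A negative relation (Mmp9 and Timp1) and a positive relation (Mmp11 and Mmp14) made up these 2.

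Mmp9 ran opposite to Timp1. In the 3 swimming tumors with the highest Mmp9, Timp1 was lowest, at 386 to 411 FPKM, and control 5, with the lowest Mmp9, had the highest Timp1. Pearson's r was -0.85 (permutation p = 0.00079, adjusted 0.0162), and Spearman's rho was -0.96 (p = 1e-05, the smallest that 100000 permutations can give, adjusted 0.00045). Without control 5 and swimming 1, the tumors farthest from the median of Mmp9, r was -0.80. Within the groups it was -0.70 in control and -0.98 in swimming tumors.

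Mmp11 and Mmp14 varied together, both lowest in swimming 6, with r of 0.87 (permutation p = 0.00035, adjusted 0.0158) and rho of 0.92 (adjusted p = 0.0018). Without swimming 4 and swimming 6 r was 0.85, and it was 0.85 in control and 0.92 in swimming tumors. Timp2 followed both genes by Pearson's r, with 0.80 for Mmp11 (permutation p = 0.00167, adjusted 0.0188) and 0.79 for Mmp14 (permutation p = 0.0026, adjusted 0.0234). By rho the adjusted p values were 0.0516 and 0.0784. Without the tumors farthest from the median, r fell to 0.63 and 0.50, so both relations rested in part on those tumors.

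Mmp2 and Timp3 shared their highest tumors, control 1 and swimming 5, and r was 0.83 (permutation p = 0.00108, adjusted 0.0162). Without these tumors r fell to 0.56, and rho over all tumors was 0.64 with an adjusted p of 0.129, so the relation rested in part on them. Between the gelatinases Mmp2 and Mmp9, r was 0.72 (permutation p = 0.00886, adjusted 0.0664) and 0.81 without control 1 and swimming 5.

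**Figure D3:**
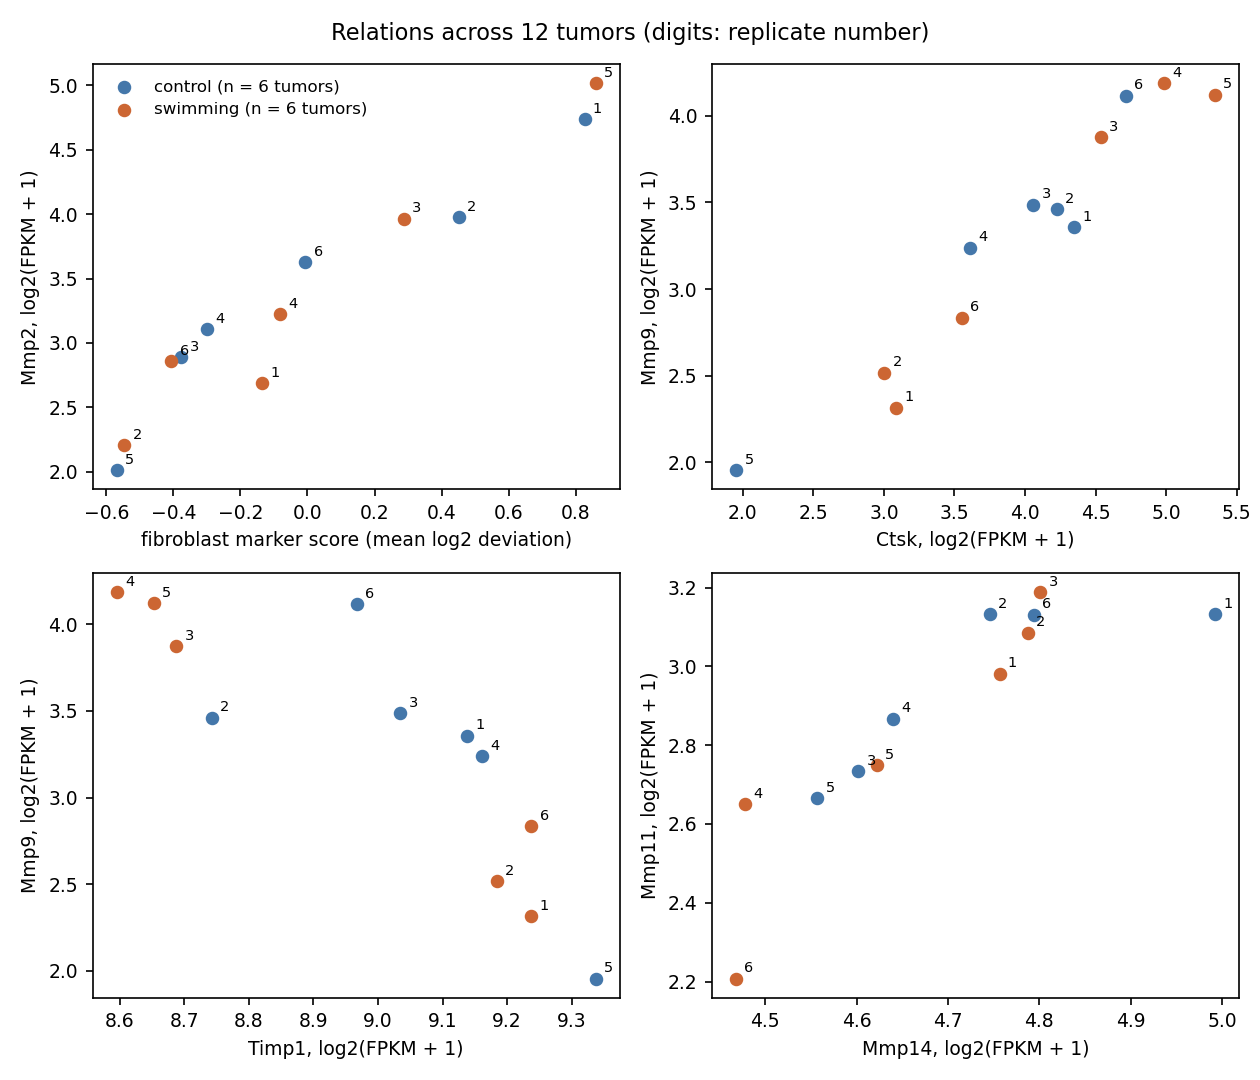
Mmp2 against the fibroblast marker score, Mmp9 against Ctsk, Mmp9 against Timp1 and Mmp11 against Mmp14, as log2(FPKM + 1) except for the score, with 1 point per tumor numbered by replicate and colored by group. Mmp9 falls as Timp1 rises (r of -0.85), the other relations are positive, and control and swimming tumors lie along the same trend in each panel.

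Marker genes of the cell types that such a tumor can hold were summarised as scores. A score is the mean log2 deviation from the average over tumors, taken over the list genes that passed the filter. The filter was 0.1 FPKM in at least 6 tumors. Not every listed gene passed it for neutrophils (7 of 12), adipocytes (5 of 8), colon epithelium (6 of 12) and skin keratinocytes (2 of 8). Of the 90 relations between the 10 members and 9 scores, 1 passed the adjustment. Mmp2 followed the fibroblast score with r of 0.97 (permutation p = 1e-05, adjusted 0.0009) and rho of 0.96 (adjusted p = 0.0018). With control 1 and swimming 5 left out, r was still 0.92, and it was 0.96 in control and 0.97 in swimming tumors. All 12 fibroblast markers passed the filter, and their summed level ran from 73.7 to 187 FPKM in control and from 78.6 to 186 FPKM in swimming tumors. In bulk tumors, more cells of a type and more RNA per cell cannot be told apart.

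Of the 12790 genes with a mean of at least 1 FPKM, those most like Mmp2 once group means were removed were Col5a2 (r = 0.98), Fbn1 (r = 0.98) and Mfap5 (r = 0.98). They encode a collagen chain, the microfibril protein fibrillin 1 and a protein of the same microfibrils, and Mfap5 is also on the fibroblast list. Col5a2 stood at 22.8 FPKM in control 1 and 22.9 FPKM in swimming 5, and at 3.44 to 12.04 FPKM in the other 10 tumors.

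The genes most like Mmp9 were Ctsk (r = 0.97), Acp5 (r = 0.96) and Cep128 (r = 0.95), over 12 tumors with group means removed. Cathepsin K and tartrate-resistant acid phosphatase, the products of Ctsk and Acp5, are known from bone-resorbing osteoclasts. Ctsk ran from 2.87 FPKM in control 5 to 39.7 FPKM in swimming 5, with 30.6 FPKM in swimming 4 and 22.2 FPKM in swimming 3, against 7.01 to 10.7 FPKM in swimming 1, 2 and 6. The split of the swimming tumors by Mmp9 was thus also seen for Ctsk. Skeletal muscle markers moved the same way. Their score had r of 0.78 with Mmp9 (adjusted p = 0.101, 0.76 without the tumors farthest from the median score) and -0.72 with Timp1 (adjusted p = 0.101). With Mmp2 it had r of 0.72 (adjusted p = 0.101, 0.62 without the same tumors), 0.56 in control and 0.86 in swimming tumors. All 12 muscle markers were detected, and their summed level ran from 3.60 to 231 FPKM in control and from 2.60 to 326 FPKM in swimming tumors. The part of muscle tissue in the levels of Mmp2, Mmp9 and Timp1 was not tested.

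For Timp1, the most alike gene was Ereg (r = 0.92), which encodes the EGF receptor ligand epiregulin, followed by Pex14 and Coq5. Ereg ran from 29.3 FPKM in swimming 5 to 85.7 FPKM in control 5. Timp2 was most like Fbln2 (r = 0.94), which encodes the matrix protein fibulin 2, and then Trp53 and Rhbdd2. Timp3 was most like Ap2s1 (r = 0.95), Ada and Lbh, and Mmp13 most like Lgr6 (r = 0.92), Klf6 and Prss12. Mmp11 and Mmp14 had Mgrn1 in common among their 3 most alike genes, with Scaf1 (r = 0.94) first for Mmp11 and Cdc42ep3 (r = 0.91) first for Mmp14. The remaining gene was Mlycd for Mmp11 and Golga4 for Mmp14. The first gene was Kdm2b (r = 0.90) for Mmp10, ahead of Gm16897 and Il1rap. For Mmp3 it was Surf2 (r = 0.89), ahead of Apol7a and Ccdc107. For a further r, the 2 tumors in which the member lay farthest from its group mean were left out, and group means were not removed. This r was lowest for Gm16897 with Mmp10 (0.59) and for Trp53 (0.60) and Rhbdd2 (0.63) with Timp2. It was 0.70 for Surf2, 0.76 for Lgr6 and 0.79 for Kdm2b. These genes are the highest of all genes ranked and are given as a description.

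**Figure D4:**
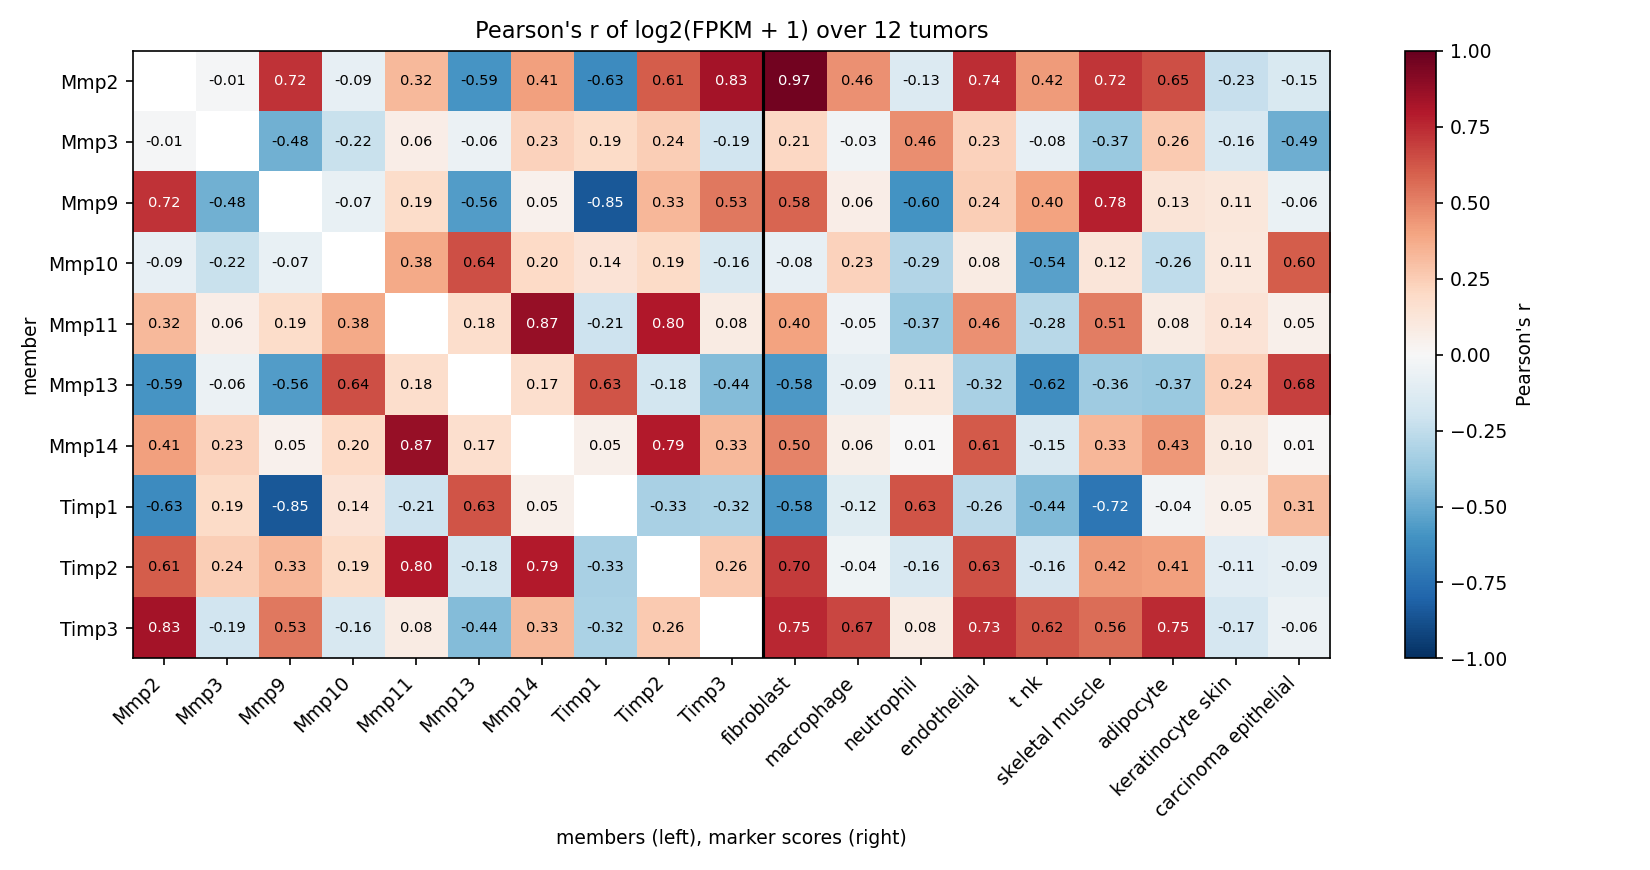
Pearson's r of log2(FPKM + 1) over 12 tumors between the 10 members (left of the line) and between members and 9 marker scores (right of the line), on a color scale from -1 to 1. Mmp2 with the fibroblast score (0.97), Mmp11 with Mmp14 (0.87) and Mmp9 with Timp1 (-0.85) are the strongest.

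Of 16 further genes looked at (14 Mmp genes, Timp4 and the membrane-anchored MMP inhibitor Reck), 9 passed the filter of 0.1 FPKM in at least 6 tumors. Mmp19 was the most abundant of them, at a level like that of Mmp2, with 12.5 ± 2.03 FPKM in control and 10.5 ± 3.00 FPKM in swimming tumors (SD, n = 6 each). The macrophage elastase Mmp12 followed with 5.37 and 4.99 FPKM, Mmp28 with 2.14 and 2.43, Reck with 1.96 and 2.01, and Mmp15 with 1.54 and 1.43 FPKM. Mmp23, Mmp8, Mmp25 and Mmp27 had means below 1 FPKM in both groups. Mmp1a, Mmp1b, Mmp16, Mmp17, Mmp21, Mmp24 and Timp4 did not pass the filter. Mmp25, a membrane-anchored MMP known from leukocytes, was the only one of the 9 at an unadjusted p below 0.05. Over all genes tested, the share was 5.56%. It ranged from 0.223 to 0.637 FPKM in control and from 0.462 to 1.11 FPKM in swimming tumors, with a log2 fold change of 0.25 (SE 0.10, limma adjusted p = 0.889). The groups overlapped, and over these 9 genes the log2 fold change had a median of -0.063.

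Of the genes that activate MMPs or control plasmin, 0 of 11 were at an unadjusted p below 0.05, against 5.56% of all genes. For lists this short, the counts were not tested against that share. The urokinase gene Plau stood at 40.7 ± 7.92 FPKM in control and 42.6 ± 7.11 FPKM in swimming tumors, and its receptor Plaur at 83.0 ± 13.6 and 72.4 ± 15.6 FPKM (SD, n = 6 each). Plat, which encodes the other plasminogen activator, stood at 1.63 FPKM in control and 1.83 FPKM in swimming tumors. Furin had means of 14.2 and 13.7 FPKM. Bsg, which encodes the MMP inducer basigin, had means of 192 and 191 FPKM, and the clearance receptor gene Lrp1 had means of 89.4 and 90.4 FPKM.

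Of the related ADAM and ADAMTS proteases, 0 of 16 were at an unadjusted p below 0.05 in either direction, against 5.56% of all genes. Adam10 and Adam17, which release proteins from the cell surface, had means of 22.2 and 8.81 FPKM in control and 20.6 and 9.76 FPKM in swimming tumors. Matrix proteins, the substrates of MMPs, also gave 0 of 21, against the same share of all genes. Spp1, which encodes osteopontin, was the most abundant at 2703 ± 555 and 2651 ± 709 FPKM, and Fn1, encoding fibronectin, stood at 401 ± 66.5 and 391 ± 87.2 FPKM (SD, n = 6 each). Col4a1 of basement membranes had means of 77.5 and 73.8 FPKM. Col1a1 of fibrillar collagen spread from 25.8 to 247 FPKM in control and from 36.8 to 235 FPKM in swimming tumors.

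Of 13 genes for collagen modification, cross-linking and cathepsins, 1 was higher and 1 lower at an unadjusted p below 0.05. Over all genes tested, the shares were 3.11% and 2.46%. P4ha1, a subunit of the enzyme that hydroxylates collagen prolines, had means of 45.6 ± 5.69 and 55.0 ± 10.2 FPKM and a log2 fold change of 0.25 (SE 0.12, limma adjusted p = 0.889). Cathepsin L (Ctsl) had means of 184 ± 16.0 and 156 ± 20.7 FPKM and a log2 fold change of -0.24 (SE 0.088, limma adjusted p = 0.889). Both genes overlapped between the groups.

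Among 25 genes for factors known to switch on MMP genes, 5.56% being the share over all genes, only Tnf was at an unadjusted p below 0.05. Tnf ranged from 0.724 to 1.69 FPKM in control and from 1.21 to 2.40 FPKM in swimming tumors. Its log2 fold change was 0.43 (SE 0.13, two-sided exact permutation p = 0.0152, limma adjusted p = 0.889). Il1b, another inflammatory cytokine gene, stood at 5.93 ± 1.85 and 8.36 ± 3.45 FPKM (SD, n = 6 each, limma adjusted p = 0.901). The AP-1 genes Jun and Fosl1 had means of 68.1 and 87.8 FPKM in control and 72.0 and 85.9 FPKM in swimming tumors. Fos was lower, at 4.57 ± 2.08 and 4.86 ± 0.921 FPKM (SD, n = 6 each). Tgfb1, which encodes a growth factor that drives matrix production, had means of 18.8 and 18.6 FPKM. In limma, 0 genes of these lists had an adjusted p below 0.05.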

How the data were processed

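RNA was sequenced from 12 CT-26 tumors after removal of ribosomal RNA. The authors mapped the reads with HISAT2 2.0.5 and quantified them with StringTie 1.3.3, and the deposited values are FPKM per gene. The labels name both hg38 and GRCm38, while the identifiers are those of mouse genes. Names and coordinates came from GENCODE M21 (GRCm38), matched by identifier for 30542 of 30630 genes, and promoters from RefSeq (8 of 10 members matched). FPKM carry no read numbers, so absolute depth and counting error are unknown, and relative depth was read from the values of weakly expressed genes.

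The labels gave the groups and replicate numbers. The 19018 genes that reached 0.1 FPKM in 6 or more tumors were compared on log2(FPKM + 1) with lmFit and eBayes with trend in limma 3.58.1 (R 4.3.3), with no covariate and Benjamini-Hochberg adjustment. P-values measure the spread between tumors of different mice. Single genes and marker scores were also tested by two-sided exact permutation, and correlations, also two-sided, with 100000 permutations. Likeness was ranked over genes with a mean of at least 1 FPKM. The members and all gene lists were chosen with earlier results of these data known. Named are all members, further genes of the family, the 3 genes most like each member, genes of the other lists at an unadjusted p below 0.05, and 19 genes picked by role, of which 1 is not reported here. Marker genes, neighbouring genes and genes with overlapping exons are named beside results they touch. Alternatives were pseudocounts of 0.1 and 0.01, no filter, a filter of 1 FPKM, quantile and trimmed-mean scaling, eBayes without trend, sample weights, a replicate block and leaving out each tumor. Leaving out the 2 tumors highest in fibroblast markers or the 3 highest in muscle markers was added after the data were seen.

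On simulated data for this comparison of 19018 genes, 200 genes were changed by 0.5, 1 or 1.5 on the log2 scale. Of these, 75.5%, 96% and 97.5% were recovered, beside 8, 9 and 13 unchanged genes. The changed genes were drawn only from more strongly expressed genes, a set without Mmp10 and Timp3, and noise was independent between genes. The shares therefore do not hold for each member, and recovery for genes as variable as Mmp2, Mmp3 and Mmp9 was not tested. Files were joined in Python 3.11.15 (pandas 2.3.3, scipy 1.17.1), and matplotlib 3.10.9 drew the plots. Mmp7, Mmp20 and protein sequences were not analysed here.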

Additional observations from a re-analysis of the deposited data

Results flagged for a closer look

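Mmp3 in swimming 1, at 42.0 FPKM, stood apart from the other 5 swimming tumors, the nearest of which was at 22.5 FPKM and the lowest at 14.5 FPKM. The gap made up 0.710 of the range of the group, above Dixon's 95% critical value for 6 samples. Of the 24 groups looked at, chance alone would give about 1.2 such samples, and 1 was found. The highest control tumor, control 2, had 35.9 FPKM.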

How the results depend on the processing

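Over the alternatives other than leaving out a single tumor, 104 of 109 fold changes of the members kept their direction. With single tumors left out, 107 of 120 did. Using no filter, a filter of 1 FPKM, eBayes without trend or the replicate block does not alter a member's fold change. Their share of the 104 was therefore fixed in advance. In limma, no member passed an adjusted p of 0.05 in any alternative or with any single tumor left out. The call of Mmp10 at an unadjusted p below 0.05 was lost in several of these fits. The lowest adjusted p of a member in any of them was 0.657. The count of members lower at an unadjusted p below 0.05 was 0 in place of 1 with pseudocounts of 0.1 and 0.01, with a filter of 1 FPKM, where Mmp10 was no longer tested, and without the 3 tumors highest in muscle markers, and the cause was not tested for the others. Mmp9 turned to -0.12 with sample weights, -0.11 without the 2 tumors highest in fibroblast markers and -0.14 without the 3 tumors highest in muscle markers. Without these 3 tumors Mmp13 turned to 0.024 and Timp3 to -0.066. Over all genes, 391 were higher at an unadjusted p below 0.05 with a filter of 1 FPKM, which left fewer genes to test. Without the 3 tumors, 308 were higher and 285 lower at this threshold. With sample weights, 1 gene had an adjusted p below 0.05.

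With each tumor left out in turn, the count of genes at an adjusted p below 0.05 ranged from 0 to 3, that of genes at an unadjusted p below 0.05 from 398 to 853 higher and from 383 to 649 lower, and that of members from 0 to 1 lower. The log2 fold change ranged from -0.40 to 0.20 for Mmp2, from -0.095 to 0.37 for Mmp3, from -0.22 to 0.24 for Mmp9 and from -0.032 to 0.21 for Timp3. With a replicate block, Mmp10 was the only member at an unadjusted p below 0.05 (limma adjusted p = 0.965). At this threshold, 451 genes were higher and 441 lower. Deviations of tumors with the same number correlated by -0.32 to 0.0059, which gave no sign of a pairing by number. These values cannot settle whether the numbers stand for a pairing, and the labels do not state it. Since absolute depth is unknown, the precision it gives could not be stated for any member.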

Other observations

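Control 4 held the highest Mmp10 (1.21 FPKM) and Mmp13 (17.7 FPKM) and the lowest Mmp3 (6.36 FPKM) of the 12 tumors. The epithelial keratin gene Krt8 was also highest there, at 129 FPKM, against a highest value of 14.9 FPKM in the swimming group. Control 1 and swimming 5, highest in Mmp2 and Timp3, were also highest in adipocyte markers, with scores of 2.95 and 1.16 on the log2 scale.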
